A study of Mus musculus with 56 samples.

Results

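The comparison described here sets hearts of mice fed by day against hearts of mice fed by night, all taken at zeitgeber time 8 (ZT8, 8 h after lights on). It holds 8 libraries of the 56 in the series, 4 from daytime-restricted feeding (DRF) and 4 from nighttime-restricted feeding (NRF, the control regimen), and it takes every library whose labels give ZT8. Every mouse was an adult female C57BL/6J, an inbred laboratory strain. The mice arrived at 7 weeks of age, had 7 days to acclimate with lights on for 12 of every 24 h, and were sampled at 9 weeks after 7 days on their regimen. Polyadenylated RNA of the heart was sequenced. No genotype or drug differed between the groups. At ZT8 the lights had been on for 8 h, so DRF mice were within their feeding window and NRF mice within their hours without food. Feeding state and regimen therefore cannot be told apart at this one ZT.

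The heart burns mostly fatty acids, and more so in fasting, when fatty acids from adipose tissue activate the PPAR nuclear receptors and insulin is low. PPAR target genes include Pdk4, a kinase that switches off pyruvate dehydrogenase and so spares glucose, and Cpt1a, which makes acylcarnitines for import into mitochondria. The heart also holds a circadian clock. In it CLOCK and BMAL1 (encoded by Arntl) activate genes through E-boxes, PER, CRY and REV-ERB proteins repress them in turn, and DBP and NFIL3 proteins pass the rhythm on. Feeding time and light can set such clocks to different hours.

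Values are TPM, a gene's share of all transcripts in a library after division by exon length, recomputed here after turning the deposited numbers back into whole reads. The 8 libraries held 30.0 to 46.2 M recovered reads, and the lowest was NRF replicate 1. The labelled tissue showed its markers, since the summed TPM of 9 cardiomyocyte markers ran from 35571 to 40770. Haemoglobin and other erythroid markers varied widely within each regimen, with sums of 4909 to 26729.6 TPM under DRF and 2927 to 37241 TPM under NRF. Mitochondrially encoded genes took 21.0% to 22.7% of reads under DRF and 17.04% to 21.3% under NRF. The summed smooth muscle and pericyte markers did not overlap, at 613 to 678 TPM under DRF and 700.0 to 768 TPM under NRF. In two-sided exact permutation tests of 19 such library measures the lowest Benjamini-Hochberg adjusted p was 0.54 with 4 against 4 libraries and 0.47 with 4 against 3. The smallest unadjusted p these designs allow is 0.029, which the smooth muscle and pericyte sum had, and 0.057, so the tests say little on whether the libraries were balanced. No text used here says whether replicates came from separate cages, so p-values measure the spread between libraries. In the tests of genes that spread is pooled over all 14 groups of the series.

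One ZT8 library stood apart from its label. The library labelled NRF ZT8 replicate 1 was closest to the mean of DRF ZT4, at a root mean square (RMS) log2 difference of 0.19 over 4538 genes that differ among groups, and lay 0.34 from the other NRF ZT8 libraries. The other 3 NRF libraries lay 0.16, 0.17 and 0.22 from their own group, which was the nearest of the 14 for each. All 4 DRF libraries were also nearest to their own group, at 0.14 to 0.23, with DRF replicate 3 the farthest. Conversely, the library labelled DRF ZT4 replicate 1 was closest to NRF ZT8, at 0.17, and lay 0.33 from its own group. The labels were kept as given, and results are stated without NRF ZT8 replicate 1 and with all libraries.

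**Figure D1:**
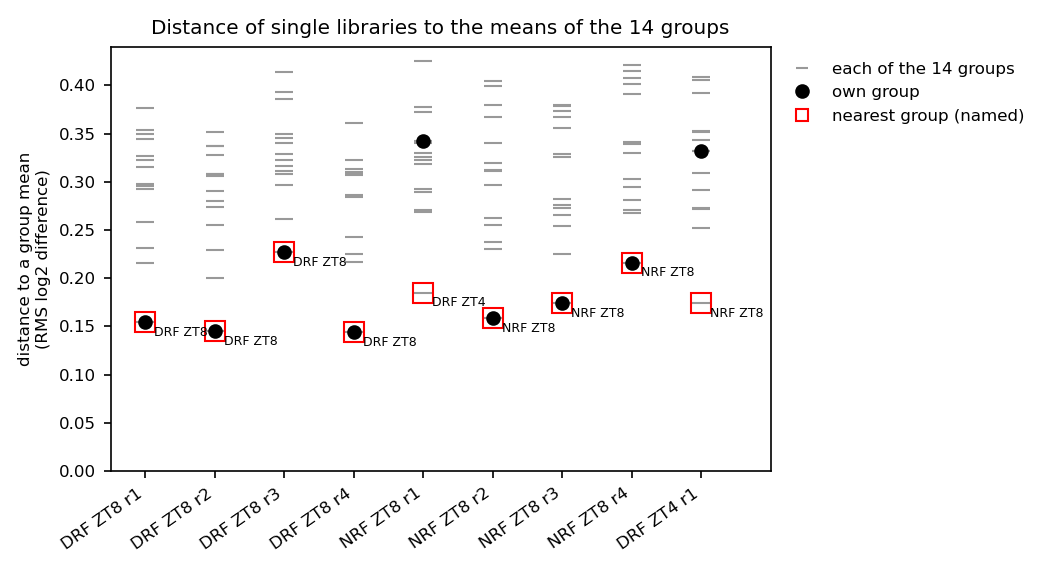
Distance of each ZT8 library, and of DRF ZT4 replicate 1, to the means of the 14 groups, as the RMS log2 difference over genes that differ among groups. Grey dashes are the 14 groups, black points the library's own group without that library and red squares the nearest group; NRF ZT8 replicate 1 lies 0.34 from its own group and 0.19 from DRF ZT4.

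Of 13887 genes tested with limma on log2(TPM + 1), 405 (2.92%) differed between the regimens without NRF replicate 1 at an adjusted p under 0.05. Of these, 62 (0.446%) were higher and 343 (2.47%) lower under DRF. With all libraries the count was 49 (0.353%), 13 (0.0936%) higher and 36 (0.259%) lower, and 46 of the 49 were also among the 405. Both fits pooled the spread over all groups of the series. Fitted to the ZT8 libraries alone, 78 genes passed without NRF replicate 1 and 5 with all ZT8 libraries. The median gene differed by -0.10 on the TPM scale. After median-of-ratios rescaling, which brought that median to 0.00, 710 genes differed, 413 higher and 297 lower (41.8% lower, against 84.7% on the TPM scale). With all libraries the rescaled counts were 53 higher and 59 lower. The excess of lower genes therefore depended on the scale. Of the 405 genes, 328 also passed after rescaling, all in the same direction. Under TPM, rescaling and limma voom on reads alike, 62 of the 62 higher genes and 265 of the 343 lower genes passed. Rescaling and voom both shifted the differences upward, so the higher genes could hardly lose their calls there. Of the genes tested, 22.3% had DRF and NRF values that did not overlap in the 7 libraries, against 393 of the 405. In NRF replicate 1 itself, 144 of the 343 genes called lower stood above every DRF library (42.0%), against 98.3% to 100% in the other 3 NRF libraries that entered the test. Without NRF replicate 4 as well, 6 genes passed, and without DRF replicate 3 in its place 73 passed. NRF replicate 4 had the smallest share of mitochondrial reads of the 8 ZT8 libraries. Its summed fibroblast (839 TPM) and macrophage (656 TPM) markers and its median-of-ratios factor (1.16) were the highest of all 56 libraries. The part of these traits in the calls was not tested. Of 52 genes named by rule, 44 passed without NRF replicate 1, and 4 of these passed under every alternative.

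Slc25a22, Cyp1a1 and Gm48483 were the genes of those named here that passed in both library sets and under every alternative in which they were tested. Slc25a22 (chr7:141429744-141437892, GRCm38) encodes a mitochondrial glutamate carrier. Its levels were 11.4, 12.4, 11.7 and 11.2 TPM in the 4 DRF hearts, 27.0, 20.7 and 29.1 TPM in NRF replicates 2 to 4 and 23.4 TPM in NRF replicate 1. All NRF hearts were above all DRF hearts, and the DRF hearts lay close together. The difference on the log2(TPM + 1) scale was -1.05 ± 0.15 (SE) without NRF replicate 1 (adjusted p = 2.7e-04) and -1.03 ± 0.14 with it (adjusted p = 5.9e-05).

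**Figure D2:**
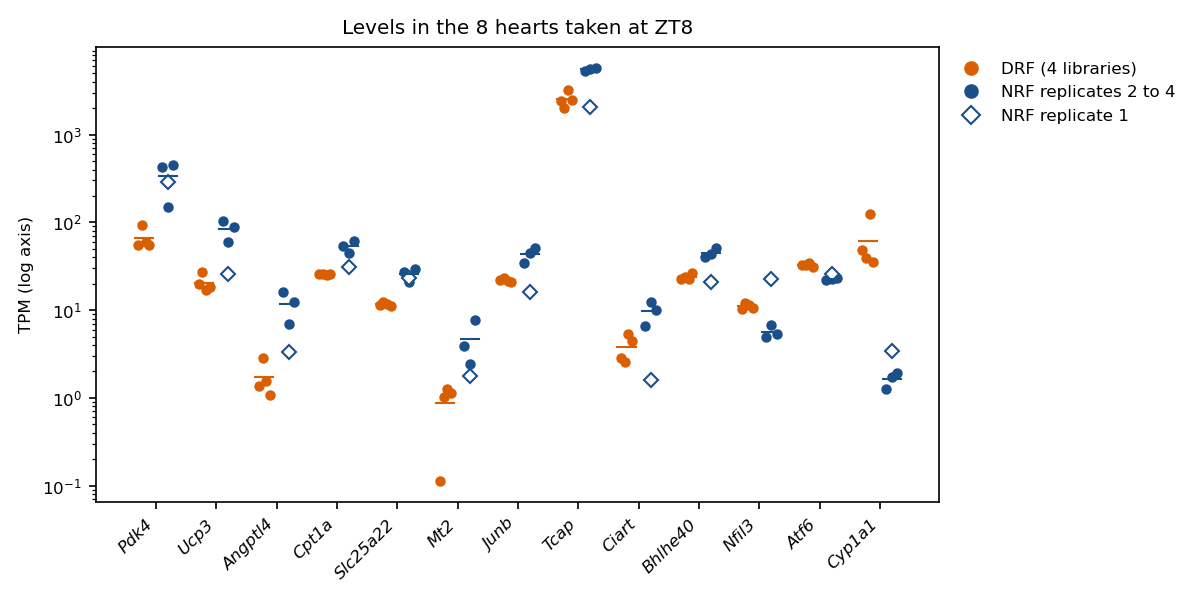
TPM on a log axis of 13 genes in the 8 hearts taken at ZT8, with DRF in orange, NRF replicates 2 to 4 in blue and NRF replicate 1 as open diamonds; bars are means of the filled points. In Ucp3, Tcap, Ciart and Nfil3 the open diamond lies apart from the other NRF points, while in Slc25a22 and Pdk4 it lies among them.

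Several genes of fatty acid use were lower under DRF. Of 23 tested genes in a list of PPAR-responsive fuel genes, 6 passed without NRF replicate 1, all lower (Pdk4, Angptl4, Ucp3, Cpt1a, Mlycd and Slc22a5), or 26.1% against the 2.47% of all genes called lower. With all libraries 4 passed, where 0.259% of all genes were called lower, and 0 were higher in either set. The list's median difference was -0.34, against -0.10 for all genes tested. Pdk4 (chr6:5483351-5496309) stood at 55.5, 93.3, 60.2 and 55.1 TPM under DRF and at 424, 149.5 and 451 TPM in NRF replicates 2 to 4, with 287 TPM in NRF replicate 1. The groups did not overlap with or without that library. Mean Pdk4 was 5.17 times as high in NRF replicates 2 to 4 (342 ± 167, SD, n = 3) as under DRF (66.0 ± 18.3, n = 4), a difference of -2.23 ± 0.50 on the log2 scale (adjusted p = 0.013; -2.21 ± 0.46 and 0.015 with all libraries). Without NRF replicate 4 as well its adjusted p was 0.24. The Pdk4 call was lost in 2 of 17 alternatives without NRF replicate 1 and in 6 of 18 with all libraries.

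Cpt1a (chr19:3322334-3385733) ran from 25.1 to 26.1 TPM under DRF and stood at 53.6, 44.3 and 62.1 TPM in NRF replicates 2 to 4. NRF replicate 1, at 31.3 TPM, lay between, above every DRF heart. The difference was -1.01 ± 0.18 (adjusted p = 0.0024) and with all libraries -0.83 ± 0.17 (adjusted p = 0.017). Ucp3 (chr7:100472990-100486432), a mitochondrial carrier that rises in fasted muscle, measured 19.8, 27.4, 16.99 and 18.4 TPM under DRF against 103, 59.7 and 88.1 TPM in NRF replicates 2 to 4. Here NRF replicate 1 (25.8 TPM) fell within the DRF range, so the difference of -1.95 ± 0.44 (adjusted p = 0.014) became -1.55 ± 0.43 with all libraries (adjusted p = 0.082). Angptl4, a secreted inhibitor of lipoprotein lipase, was lower by a larger margin but at a low level, from 1.09 to 2.88 TPM under DRF and from 6.87 to 16.1 TPM in NRF replicates 2 to 4 (-2.20 ± 0.62, adjusted p = 0.04). Its adjusted p with all libraries was 0.13, and without NRF replicate 1 it lost its call in 10 of 17 alternatives.

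Malonyl-CoA decarboxylase (Mlycd), which removes an inhibitor of CPT1, was lower by a smaller step. Its levels were 68.0, 67.8, 65.9 and 67.8 TPM under DRF, 100.2, 71.2 and 115 TPM in NRF replicates 2 to 4 and 96.2 TPM in NRF replicate 1, with no overlap (log2 difference -0.47 ± 0.13, adjusted p = 0.031; all libraries 0.044). After median-of-ratios rescaling without NRF replicate 1 its adjusted p was 0.063. Slc22a5, a carnitine transporter, differed by -0.36 ± 0.09 (adjusted p = 0.024; all libraries 0.044). In all 19 of the 23 differences were below 0, and 11 had an unadjusted p under 0.05, as did 22.1% of all genes. The 17 members that did not pass included Acot2 (-0.59, adjusted p = 0.10) and Plin5 (-0.48, 0.068), both lower than Slc22a5, and Lpl (-0.03) and Slc25a20 (0.01), both near zero.

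Of 21 tested enzymes of mitochondrial beta-oxidation, 1 passed with or without NRF replicate 1 (Cpt1a, shared with the PPAR list), or 4.76%, a share near the 2.92% of all genes. The list's median was -0.02, and after rescaling without NRF replicate 1 it was 0.09, with 2 genes higher and 1 lower. Of 18 genes of lipolysis and triglyceride synthesis, 2 were lower and 0 higher without NRF replicate 1, and 0 passed with all libraries (7 at an unadjusted p under 0.05, against 14.6% of all genes). Gpam, the first enzyme of glycerolipid synthesis, stood at 67.5, 78.2, 69.4 and 71.9 TPM under DRF and 135, 110.4 and 147 TPM in NRF replicates 2 to 4 (difference -0.85 ± 0.20, adjusted p = 0.014). Lipe, hormone-sensitive lipase, differed by -0.79 ± 0.16 (adjusted p = 0.0084). NRF replicate 1 was above every DRF heart in both genes, and their adjusted p with all libraries was 0.065 and 0.058. Adipocytes also express Lipe, Gpam and Angptl4. The summed TPM of 6 adipocyte markers was 28.4 to 50.1 under DRF and 37.3 to 156 under NRF, highest in NRF replicate 4, and 0 of the 5 tested passed. Adipoq ran from 4.03 to 17.2 TPM under NRF and from 3.79 to 7.08 TPM under DRF. The part of adipocyte RNA in these differences was not tested.

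**Figure D3:**
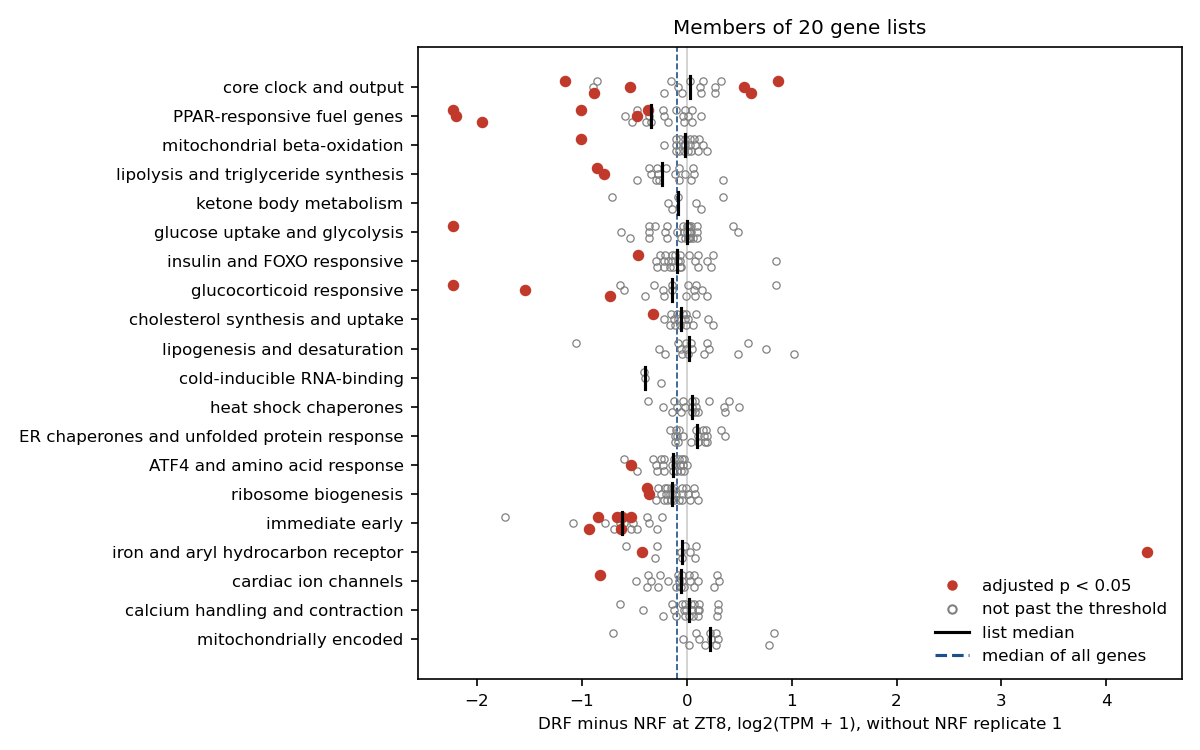
DRF minus NRF difference at ZT8 on the log2(TPM + 1) scale, without NRF replicate 1, for the tested members of 20 gene lists; red points passed an adjusted p under 0.05, bars are list medians and the dashed line is the median of all genes. The PPAR-responsive and immediate early lists have medians of -0.34 and -0.62, and Cyp1a1 stands alone at 4.39.

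Among 19 genes of the core clock and its output, 3 were higher and 3 lower without NRF replicate 1, and 0 passed with all libraries (4 at an unadjusted p under 0.05, which 14.6% of all genes had). The share called, 31.6%, stood against 2.92% of all genes. The higher genes included Nfil3, a repressor at D-boxes, and Cry1, a repressor of CLOCK and BMAL1. Nfil3 measured 10.4, 12.1, 11.5 and 10.7 TPM under DRF and 4.98, 6.74 and 5.31 TPM in NRF replicates 2 to 4, and the 2 sets did not overlap (difference 0.87 ± 0.20, adjusted p = 0.014). NRF replicate 1, at 22.4 TPM, lay above all 7 others, and with it the adjusted p was 0.43. Cry1 ran from 8.92 to 10.3 TPM under DRF and from 5.44 to 6.70 TPM in NRF replicates 2 to 4 (0.55 ± 0.14, adjusted p = 0.025), with 13.2 TPM in NRF replicate 1.

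The lower clock genes were Ciart, Bhlhe40 and Bhlhe41 (-0.54 ± 0.14, adjusted p = 0.025), which encode repressors of CLOCK and BMAL1. Bhlhe40 measured 22.5, 23.6, 22.7 and 26.6 TPM under DRF against 40.3, 43.7 and 50.8 TPM in NRF replicates 2 to 4 (-0.88 ± 0.22, adjusted p = 0.021). NRF replicate 1 stood at 21.2 TPM, below all of them. Ciart measured 2.84, 2.57, 5.28 and 4.48 TPM and 6.66, 12.5 and 10.1 TPM, with 1.59 TPM in NRF replicate 1 (-1.16 ± 0.34, adjusted p = 0.045; all libraries -0.66 ± 0.36 and 0.39). It kept its call in 5 of 16 alternatives. Dbp, an output activator, and Nr1d1, which encodes REV-ERB alpha, did not pass although their 7 values did not overlap. Dbp stood at 76.9, 67.5, 78.3 and 78.5 TPM under DRF and 117, 149.7 and 158 TPM in NRF replicates 2 to 4, with 20.1 TPM in NRF replicate 1 (difference -0.90 ± 0.37, adjusted p = 0.15). Nr1d1 differed by -0.85 ± 0.26 (adjusted p = 0.06). Exons of Dbp overlap Sphk2 and those of Nr1d1 overlap Thra on the other strand, and the library kit does not mark strand. Arntl (0.27), Per1 (-0.22) and Per2 (0.32) had values that overlapped, with adjusted p of 0.44, 0.74 and 0.46.

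The 300-base windows around transcript start sites (RefSeq, build GRCm38.p6, 250 bases before to 50 after) were searched for 6 motifs on both strands, for the 10 largest rises and the 10 largest falls among called genes whose 7 values did not overlap. Of these, 13 have a window and 3 have a match, which is why these 3 are shown. Ciart (lower, chr3:95882179-95882478, minus strand) has 3 E-boxes, CACGTG, in capitals.
Ciart: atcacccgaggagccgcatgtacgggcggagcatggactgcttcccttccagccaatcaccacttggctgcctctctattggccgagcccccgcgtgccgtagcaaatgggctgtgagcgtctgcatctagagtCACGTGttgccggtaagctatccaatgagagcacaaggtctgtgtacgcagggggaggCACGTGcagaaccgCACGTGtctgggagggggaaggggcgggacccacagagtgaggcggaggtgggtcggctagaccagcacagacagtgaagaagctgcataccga
Nfil3 (higher, chr13:52980990-52981289, minus strand) has 1 ROR site, TAGGTCA, read here on the other strand as TGACCTA.
Nfil3: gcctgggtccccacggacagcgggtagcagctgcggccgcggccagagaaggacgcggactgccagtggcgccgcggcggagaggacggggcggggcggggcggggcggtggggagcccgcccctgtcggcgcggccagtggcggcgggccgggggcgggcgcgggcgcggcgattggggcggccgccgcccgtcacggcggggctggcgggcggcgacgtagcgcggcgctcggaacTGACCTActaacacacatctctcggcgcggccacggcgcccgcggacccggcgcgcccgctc
The noncoding RNA Gm30262 (higher, chr10:111599475-111599774, plus strand) has 1 ROR site, TAGGTCA, in 1 of its 7 windows.
Gm30262: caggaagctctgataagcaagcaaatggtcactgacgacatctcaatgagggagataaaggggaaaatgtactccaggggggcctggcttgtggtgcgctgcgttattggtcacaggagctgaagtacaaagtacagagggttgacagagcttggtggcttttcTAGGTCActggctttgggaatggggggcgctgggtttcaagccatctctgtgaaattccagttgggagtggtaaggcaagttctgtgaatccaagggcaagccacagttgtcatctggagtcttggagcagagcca
Of 32851 windows of all genes, 7.15% hold at least 1 E-box and 2.61% at least 1 ROR site. The FOXO site GTAAACA stands in 3.65%, the sterol element TCACNCCAC in 1.24%, the heat shock element in 0.603% and the PPAR site, a pair of half-sites, in 0.0396%. In 408 windows of called genes the shares were 11.8% for the E-box and 3.19% for the ROR site, a difference that was not tested. The windows of Pdk4, Ucp3, Cpt1a, Cyp1a1 and Slc25a22 hold none of the 6.

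Immediate early genes are switched on within minutes of a stimulus. Of 19 tested, 6 passed without NRF replicate 1 (31.6%, against 2.92% of all genes), all lower, and 0 passed with all libraries (12 at an unadjusted p under 0.05, against 14.6% of all genes). The list's median was -0.62, and all 19 differences were below 0. Junb, a subunit of the AP-1 transcription factor, measured 22.1, 23.3, 21.7 and 20.9 TPM under DRF against 34.5, 44.9 and 50.7 TPM in NRF replicates 2 to 4 (-0.93 ± 0.18, adjusted p = 0.0067). NRF replicate 1, at 16.3 TPM, was the lowest of the 8. Exons of Junb overlap Prdx2 on the other strand. Jun, another AP-1 subunit, stood at 39.3, 40.4, 36.0 and 46.2 TPM under DRF, 58.2, 75.8 and 89.3 TPM in NRF replicates 2 to 4 and 56.2 TPM in NRF replicate 1, with no overlap (-0.85 ± 0.22, adjusted p = 0.028; all libraries 0.078). Btg2, an antiproliferative gene, differed by -0.67 ± 0.17 and Fosl2, a partner of Jun, by -0.63 ± 0.17 (adjusted p = 0.021 and 0.037). Without NRF replicate 1 Btg2 lost its call in 5 of 17 alternatives and Fosl2 in 10 of 17. Among the NRF hearts the list was uneven. Btg2 stood at 34.5, 58.3 and 65.0 TPM in NRF replicates 2 to 4, so replicate 2 was close to the DRF range, which reached 34.3 TPM.

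Of 19 tested genes of a glucocorticoid-responsive list, 3 were lower without NRF replicate 1 (15.8%, against 2.47% of all genes) and 0 higher, and Pdk4 and Mt2 were lower with all libraries. The 3 were Pdk4 and the metallothioneins Mt1 and Mt2, which bind zinc and copper and respond to metals as well. Mt1 measured 129.9, 148, 181 and 161 TPM under DRF, 234, 233 and 305 TPM in NRF replicates 2 to 4 and 171 TPM in NRF replicate 1 (-0.73 ± 0.15, adjusted p = 0.0092). Mt2 rested on 1 to 81 reads a library and differed by -1.54 ± 0.32 (adjusted p = 0.0092). The 2 genes are close copies of each other, so some reads may have been counted for the wrong one. The list's median was -0.14, with 12 of 19 differences below 0, and 7 had an unadjusted p under 0.05 (22.1% of all genes did). The 16 that did not pass included the glucocorticoid targets Fkbp5 (0.07), Tsc22d3 (0.20) and Zbtb16 (0.09), picked after their values were seen. Of these, Zbtb16 stood at 34.5 TPM in DRF replicate 3 against 5.18 to 14.7 TPM in the 7 others.

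The other lists held few calls, from 3.13% to 7.41% of the members of 6 lists against 2.92% of all genes, so single calls near that background say little of a list. The counts are without NRF replicate 1, and with all libraries the calls of these 6 lists were Pdk4 and Nop2, both lower. Of 32 genes of glucose uptake and glycolysis, 1 was lower, Pdk4 again. Of 26 insulin and FOXO responsive genes, 1 was lower, the cyclin gene Ccng2 (-0.46 ± 0.11, adjusted p = 0.016). Of 23 amino acid response genes 1 was lower, the arginine transporter gene Slc7a1 (-0.53 ± 0.13, adjusted p = 0.018). Of 27 ribosome biogenesis genes 2 were lower, Polr1c (-0.38) and Nop2 (-0.36), and Nop2 had an adjusted p of 0.098 after rescaling. Of 18 cholesterol genes 1 was lower, Dhcr7 (-0.32), which likewise lost its call on rescaling (adjusted p = 0.059). Of 23 cardiac ion channel genes 1 was lower, the sodium channel subunit Scn4b, at 14.1, 15.97, 10.2 and 15.0 TPM under DRF and 23.6, 21.8 and 30.4 TPM in NRF replicates 2 to 4 (-0.83 ± 0.22, adjusted p = 0.033; all libraries 0.086). After rescaling without NRF replicate 1, 2 ion channel genes, 2 glucose and glycolysis genes and 1 cholesterol gene were called higher.

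In 7 lists 0 genes passed with or without NRF replicate 1: ketone body metabolism (7 tested), lipogenesis and desaturation (18), cold-inducible RNA-binding proteins (3), heat shock chaperones (20), ER chaperones and the unfolded protein response (20), calcium handling and contraction (23) and the mitochondrially encoded genes (13). Of their 104 entries 19 had an unadjusted p under 0.05 without NRF replicate 1 (18.3%, against 22.1% of all genes) and 11 with all libraries (10.6%, against 14.6%). These zeros hold on the TPM scale. After rescaling without NRF replicate 1, 7 genes were higher in 5 of the 7 lists, all but the cold-inducible and ER lists. Their medians on the TPM scale ran from -0.39 for the cold-inducible genes to 0.22 for the mitochondrially encoded ones. Scd1, a fatty acid desaturase of the lipogenesis list, was widely spread among NRF hearts, at 13.99, 61.0 and 69.5 TPM in NRF replicates 2 to 4 and 119 TPM in NRF replicate 1, against 93.4, 74.7, 75.5 and 82.1 TPM under DRF. Its difference was 1.03 ± 0.72 (adjusted p = 0.40).

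Tcap (telethonin, chr11:98383811-98384953), which caps titin at the Z-disc of the sarcomere, measured 2436, 2004, 3209 and 2454 TPM under DRF against 5254, 5531 and 5787 TPM in NRF replicates 2 to 4. The sets were well apart (-1.15 ± 0.21, adjusted p = 0.0037), but NRF replicate 1 held 2041 TPM, and with all libraries the adjusted p was 0.099. Col5a3, a collagen chain, stood at 7.98, 8.80, 5.54 and 9.16 TPM under DRF and at 11.4, 13.1 and 18.8 TPM in NRF replicates 2 to 4, with 19.97 TPM in NRF replicate 1 (all libraries -0.91 ± 0.17, adjusted p = 0.0051). Mmp14, a membrane protease that cuts collagen, differed by -0.69 ± 0.15 with all libraries (adjusted p = 0.02). Without NRF replicate 1 the adjusted p was 0.013 for Col5a3 and 0.014 for Mmp14. Neither gene overlapped between the groups, and DRF replicate 3 was the lowest of the 8 in both. Both calls depended on single libraries, as most calls at ZT8 did. Without NRF replicates 1 and 4, 6 genes passed, and the adjusted p of Tcap, Cpt1a and Junb was 0.056, 0.077 and 0.16. Besides NRF replicate 1, leaving out NRF replicate 4 gave adjusted p of 0.29 for Col5a3 and 0.28 for Mmp14, and leaving out DRF replicate 3 gave 0.076 and 0.081. Fitted to the ZT8 libraries alone, they stood at 0.097 and 0.10. Of 6 fibroblast markers 1 was lower, Col1a1 (-0.80 ± 0.22, adjusted p = 0.033; all libraries 0.11), where 2.47% of all genes were. All 6 differences were below 0 (median -0.34), and 4 had an unadjusted p under 0.05, as did 22.1% of all genes. The summed level of that list was 536 to 666 TPM under DRF, with the lowest in DRF replicate 3, and 553 to 839 TPM under NRF. The highest was in NRF replicate 4, while NRF replicates 2 and 3 stood at 627 and 684 TPM. Fewer fibroblasts and less collagen RNA per cell cannot be told apart in bulk heart RNA.

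Other genes with the largest falls among those called with all libraries were Slc25a34 (-0.66 ± 0.13), a mitochondrial carrier, Rragb (-0.59 ± 0.12), a GTPase of amino acid sensing, Tnfaip2 (-0.59 ± 0.11) and Galnt17 (-0.55 ± 0.11), a glycosyltransferase. Their groups did not overlap, and they also passed without NRF replicate 1. Without that library 2210407C18Rik was lower too, at 5.11, 9.81, 6.95 and 7.40 TPM under DRF and 22.7, 12.7 and 20.5 TPM in NRF replicates 2 to 4 (-1.23 ± 0.27, adjusted p = 0.013), while NRF replicate 1 stood at 5.14 TPM and the adjusted p with it was 0.17. The processed pseudogene Gm6969 (lower, -0.98, adjusted p = 0.012; all libraries 0.078) may share reads with its parent gene. Slc40a1, the iron exporter ferroportin, differed by -0.43 ± 0.12 (adjusted p = 0.044), a call that was lost on rescaling and with all libraries (0.10).

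Cyp1a1 (chr9:57687928-57703824), a drug-metabolising enzyme induced through the aryl hydrocarbon receptor, had the largest difference of all genes called. Its levels were 48.9, 38.9, 124 and 35.4 TPM in the DRF hearts and 3.46, 1.25, 1.73 and 1.91 TPM in NRF replicates 1 to 4. The lowest DRF heart stood at 35.4 TPM and the highest NRF heart at 3.46 TPM, and the DRF hearts differed among themselves, with replicate 3 the highest. Mean Cyp1a1 was 37.9 times as high under DRF (61.8 ± 41.8, n = 4) as in NRF replicates 2 to 4 (1.63 ± 0.342, n = 3), or 4.39 ± 0.69 on the log2 scale (adjusted p = 4.0e-04). Without DRF replicate 3 the DRF mean was 41.1 ± 7.03 TPM (n = 3), 25.2 times that of NRF replicates 2 to 4. With all libraries the log2 difference was 4.20 ± 0.63 (adjusted p = 1.6e-04). Of 11 tested genes of iron handling and the receptor, Cyp1a1 was higher in both library sets and Slc40a1 lower without NRF replicate 1 (18.2% called, against 2.92% of all genes). Other targets did not pass, with differences of -0.01 for Cyp1b1, -0.05 for Tiparp and -0.30 for Nqo1, and the receptor gene Ahr itself differed by 0.09.

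Atf6, a sensor of the endoplasmic reticulum stress response, was higher by a small and even margin. It stood at 32.6, 32.8, 34.4 and 31.2 TPM under DRF, 21.8, 22.9 and 23.0 TPM in NRF replicates 2 to 4 and 25.5 TPM in NRF replicate 1 (0.52 ± 0.10, adjusted p = 0.0037; all libraries 0.48 ± 0.09, 0.0051). The ER chaperones, its usual targets, had 0 calls. Cngb3, a channel subunit known from cone photoreceptors, ran from 2.80 to 4.05 TPM under DRF and from 1.36 to 1.48 TPM in the 4 NRF hearts (0.84 ± 0.17, adjusted p = 0.0068). Hspb3, a small heat shock protein of muscle, measured 32.3, 26.0, 30.3 and 36.5 TPM under DRF and 17.4, 19.4 and 17.2 TPM in NRF replicates 2 to 4 (0.76 ± 0.17, adjusted p = 0.012), with 35.6 TPM in NRF replicate 1. Gsta3, a glutathione transferase, differed by 0.65 ± 0.16 (adjusted p = 0.021). With all libraries the adjusted p of Cngb3, Hspb3 and Gsta3 was 0.0044, 0.15 and 0.063. After rescaling with all libraries it was 0.032 for Gsta3.

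Several of the higher genes are not classed as protein coding. Gm48483, annotated as a long intergenic RNA (chr10:18879735-18887029), measured 5.81, 6.01, 6.26 and 4.77 TPM under DRF against 1.88, 2.04, 1.54 and 1.92 TPM in NRF replicates 1 to 4 (1.24 ± 0.19, adjusted p = 4.0e-04; all libraries 8.4e-05). It rests on 25 to 126 reads a library, and its groups were well apart. Gm30262 (1.03 ± 0.23), Gm45819 (0.94 ± 0.25), the pseudogene Gm4956 (0.75 ± 0.16), Gm41414 (0.70 ± 0.20), Gm5532 (0.57 ± 0.12) and Gm32369 (0.56 ± 0.16) were also higher without NRF replicate 1, with adjusted p from 0.011 to 0.046. With all libraries Gm45819 (0.24) and Gm41414 (0.10) lost the call and the other 4 kept it. Asb4 (0.54 ± 0.13) and Hs3st5 (0.63 ± 0.15) passed with all libraries (adjusted p = 0.049 and 0.039) but not without NRF replicate 1 (0.052 and 0.057). Without that library both passed after median-of-ratios rescaling (0.028 and 0.025) and with voom (0.018 and 0.014).

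ZT20 lies 12 h from ZT8, in the feeding hours of NRF mice and the unfed hours of DRF mice. In the same limma fit without NRF ZT8 replicate 1, 2215 genes (16%) differed between the regimens at ZT20, 513 (3.69%) higher and 1702 (12.3%) lower under DRF. The regimen difference at ZT8 itself differed from that at ZT20 for 1130 genes (8.14%), and for 710 (5.11%) with all libraries. Of the 343 genes lower at ZT8, 64 (18.7%) were called higher at ZT20 and 13 (3.79%) lower. Of the 62 genes higher at ZT8, 12 (19.4%) were called lower at ZT20 and 3 (4.84%) higher. Most calls of ZT8 therefore had no call at ZT20, 266 of the lower and 47 of the higher ones. At ZT20 the sets share no libraries with those of ZT8.

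Pdk4 had the widest swing of the genes named. It was -2.23 at ZT8 and 4.11 at ZT20, so the 2 differences were -6.34 apart (adjusted p = 3.5e-08). Angptl4 went from -2.20 to 2.81, Ucp3 from -1.95 to 2.38, Cpt1a from -1.01 to 0.96 and Mlycd from -0.47 to 0.58, each with a difference between the ZTs past the threshold (adjusted p = 9.1e-05, 4.7e-06, 3.4e-07 and 6.2e-05). Slc25a22 turned as well, from -1.05 to 0.83 (adjusted p = 6.0e-08). With all libraries these 6 tests between the ZTs passed as well. Each of these genes was thus lower under the regimen that was being fed at both ZTs. Other genes differed at ZT8 and had values near zero at ZT20, among them Junb (0.21), Jun (0.09), Btg2 (0.04), Mmp14 (0.06), Tcap (-0.17) and Atf6 (-0.06), none called at ZT20. Without NRF ZT8 replicate 1 the test between the ZTs passed for each, with adjusted p from 0.002 for Junb to 0.044 for Jun. With all libraries it passed for Mmp14 (0.025) and Atf6 (0.0059) but not for Junb (0.097), Jun (0.082), Btg2 (0.22) or Tcap (0.30). Hspb3 (-1.0), Gm45819 (-1.10) and Nfil3 (-0.55) were higher at ZT8 and lower at ZT20 without NRF ZT8 replicate 1 (adjusted p at ZT20 = 2.5e-05, 0.0012 and 0.036). With all libraries none of the 3 passed at ZT8, and at ZT20 Nfil3 did not pass either (adjusted p = 0.12). 2210407C18Rik was lower at both (-1.23 and -1.40), and the test between the ZTs did not pass (adjusted p = 0.86).

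**Figure D4:**
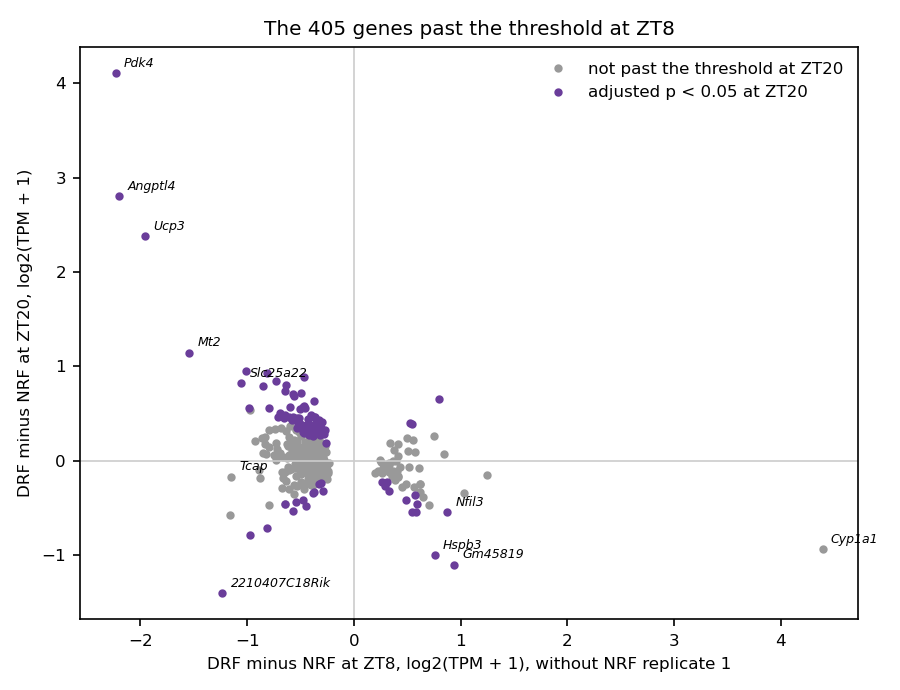
DRF minus NRF difference at ZT8 (x axis, without NRF replicate 1) against that at ZT20 (y axis) for the 405 genes past the threshold at ZT8, on the log2(TPM + 1) scale; purple points also passed at ZT20. Pdk4, Angptl4, Ucp3 and Mt2 lie at the upper left, lower at ZT8 and higher at ZT20, and Cyp1a1 lies far to the right.

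Over the whole day the genes named at ZT8 had their own profiles. Pdk4 was at its lowest under DRF at ZT8 (66.0 ± 18.3 TPM, mean ± SD, n = 4) and highest at ZT20 (1289.8 ± 290.2). Under NRF it was highest at ZT4 (649 ± 570.2) and lowest at ZT20 (72.6 ± 6.16). Cyp1a1 had 1 high ZT under each regimen, ZT8 under DRF (61.8 ± 41.8) and ZT16 under NRF (76.9 ± 84.3). The spread at those ZTs was wide, and the other group means ran from 0.933 to 12.3 TPM. Tcap under NRF was 5524 ± 266 TPM at ZT8 without replicate 1 and 5174 ± 334 at ZT12, while its DRF means ran from 1398 to 2901 TPM over the day. The highest of these DRF means was at ZT4, where single libraries ran from 2013 to 4922 TPM. That group was taken with its replicate 1, which lay closest to NRF ZT8. Nfil3 under NRF was lowest at ZT8 without replicate 1 (5.67 ± 0.935 TPM, n = 3) and highest at ZT0 (38.5 ± 3.91). With replicate 1 its ZT8 mean was 9.86 ± 8.41 TPM and the lowest ZT was 12. Under DRF it was lowest at ZT8 as well (11.2 ± 0.774).

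**Figure D5:**
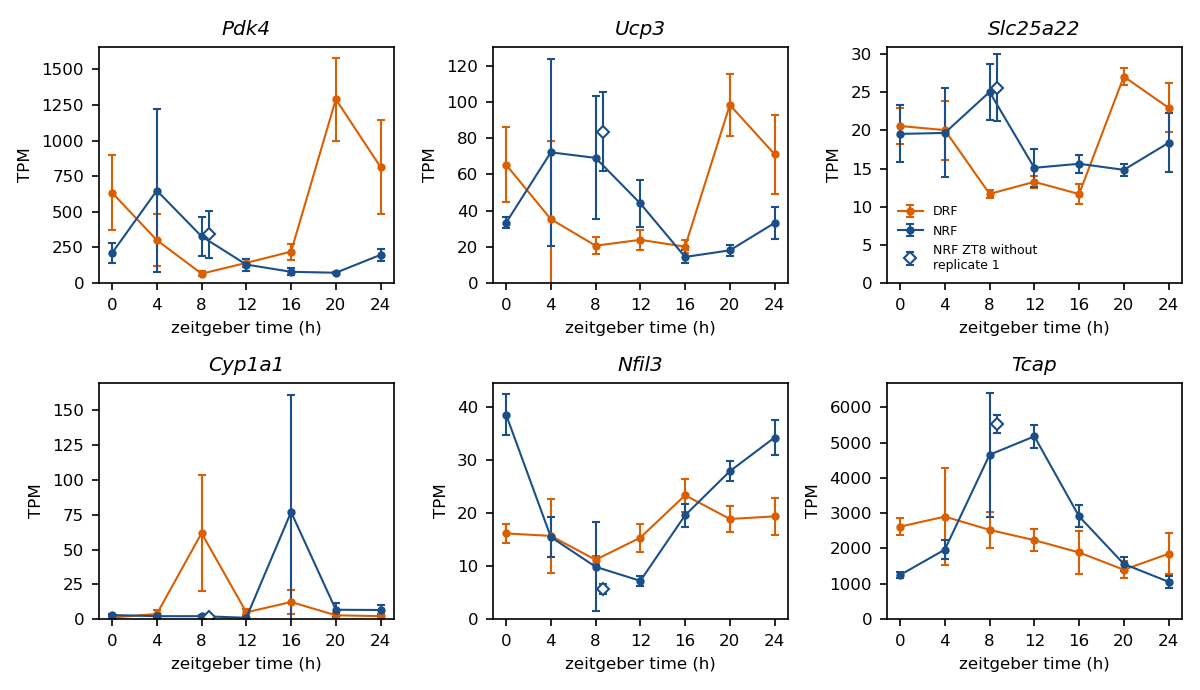
Mean TPM ± SD (n = 4 per point) of 6 genes at 7 ZTs under DRF (orange) and NRF (blue), with open diamonds, drawn slightly to the right, for NRF ZT8 without replicate 1 (n = 3); bars that would pass below 0 end at the axis. DRF ZT4 is drawn with its replicate 1, which lay closest to NRF ZT8. Cyp1a1 peaks at ZT8 under DRF and at ZT16 under NRF, and Pdk4 peaks at ZT20 under DRF and at ZT4 under NRF.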

How the data were processed

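Heart RNA of 56 libraries (14 groups of 4, by regimen and ZT in the labels) had been aligned to mm10 with HISAT2 2.0.5 and counted with featureCounts 1.5.0-p3, per the submitters' processing notes. The authors deposited values described as TPM, but on another scale: each deposited value (unit other) was proportional to log2(1 + depth-scaled reads) divided by exon length. Linear TPM had been assumed in planning, so whole reads were recovered with GENCODE M21 (GRCm38) exon lengths. Of 1273555 values tested, 99.9996% lay within 0.1 of a whole number. For 819 genes, Angptl4, Cpt1a, Gpam and Scd1 among them, the length was searched, so their levels depend on it, and so do differences of low genes such as Angptl4 through the pseudocount. Hsp90ab1, Atp5a1 and Fth1 were left out as unresolved. Columns not mapped to a sample numbered 0. Recovered counts may be reads or read pairs.

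TPM was recomputed, and the 13887 genes averaging 1 TPM or more were fitted with limma 3.58.1 (R 4.3.3) on log2(TPM + 1), with 14 group means, a mean-dependent prior and Benjamini-Hochberg adjustment over all genes (threshold 0.05). Fold changes of low genes are understated on that scale. The scripts were tested on simulated data. Depth, 29.3 to 53.0 M recovered reads a library, limits the precision of low genes, and reads without molecular identifiers are not independent molecules. Exact permutation tests (scipy 1.17.1) compared library measures.

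The comparison, its members, 20 pathway lists and 15 marker lists were chosen with earlier results of these data known. Genes were named by rule: the 10 largest rises and falls in either library set (without NRF ZT8 replicate 1 only where values did not overlap), up to 4 called members of each list, and 11 preset genes (Arntl, Dbp, Nr1d1, Per1, Per2, Ciart, Cpt1a, Pdk4, Ucp3, Angptl4 and Scd1). Mlycd, Slc22a5, Cry1, Bhlhe41, Col1a1, Adipoq, Acot2, Plin5, Lpl, Slc25a20, Fkbp5, Tsc22d3, Zbtb16, Cyp1b1, Tiparp, Nqo1 and Ahr were added after their values were seen, and 3 genes that met these choices are not reported here. The alternatives were median-of-ratios rescaling, no mitochondrially encoded genes, a pseudocount of 0.1, no filter or a mean of at least 5 TPM, voom and deposited values. Others were compared ZTs only, a replicate block, and leaving out each ZT8 library or DRF ZT4 replicate 1. No ZT20 library was left out.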

Additional observations from a re-analysis of the deposited data

Results flagged for a closer look

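In 142 groups of 4 libraries, 10 held a value set apart from its group by Dixon's criterion, which chance gives in about 1 group of 20. The library labelled NRF replicate 1 gave 4 of them, with Tcap low at 2041 TPM, Hspb3 high at 35.6 TPM, Nfil3 high at 22.4 TPM and the summed lung epithelial markers high at 7.16 TPM. Under DRF, replicate 1 was high for the lung epithelial sum (7.97 TPM). DRF replicate 2 was high for Pdk4 (93.3 TPM) and for the erythroid sum (26729.6 TPM) and low for Dbp (67.5 TPM). DRF replicate 3 was high for Cyp1a1 (124 TPM). NRF replicate 4 was high for Slc40a1 (11.5 TPM).

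The regimen difference at ZT8 differed from that at ZT20 for 36 of the 52 named genes in limma's test of the difference itself, without NRF ZT8 replicate 1, at an adjusted p under 0.05. Of all 13887 genes 8.14% passed that test. Most of the 52 were named for a large or called ZT8 difference, which is one side of this test, so a high share follows from their choice and is no finding. With all libraries 29 of these 36 passed, and Tcap (adjusted p = 0.30), Btg2 (0.22), Junb (0.097), Nfil3 (0.095), Jun (0.082), Nr1d1 (0.059) and Scn4b (0.059) did not. On the log2(TPM + 1) scale, the ZT8 difference minus the ZT20 difference was below 0 for Pdk4 (-6.34), Angptl4 (-5.01), Ucp3 (-4.33), Mt2 (-2.69), Cpt1a (-1.97), Slc25a22 (-1.88), Gpam (-1.64), Mt1 (-1.57), Nr1d1 (-1.56), Gm6969 (-1.54), Slc25a34 (-1.45), Rragb (-1.39), Lipe (-1.36), Junb (-1.14), Col5a3 (-1.12), Ccng2 (-1.02), Scn4b (-1.01), Slc7a1 (-0.98), Tcap (-0.98), Tnfaip2 (-0.95), Jun (-0.94), Slc40a1 (-0.87), Galnt17 (-0.78), Mmp14 (-0.77) and Btg2 (-0.71). It was above 0 for Cyp1a1 (5.33), Gm45819 (2.04), Hspb3 (1.76), Nfil3 (1.42), Gm48483 (1.40), Gm30262 (1.37), Gm41414 (1.18), Gsta3 (1.03), Gm32369 (0.84), Cngb3 (0.77) and Atf6 (0.58).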

How the results depend on the processing

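Between the regimens at ZT8, 49 genes passed with all libraries and 405 without NRF replicate 1. These counts became 112 and 710 after median-of-ratios rescaling, 28 (18 of them higher) and 188 (127 higher and 61 lower) without mitochondrially encoded genes, 211 and 881 with voom, and 5 and 78 with the libraries of the compared ZTs alone. With no filter on low values 31 genes passed with all libraries. Leaving out 1 ZT8 library at a time gave 4 (without DRF replicate 3) to 405 genes with all libraries. From the set without NRF replicate 1 it gave 6 (without NRF replicate 4) to 477, with 73 without DRF replicate 3 and 173 without DRF replicate 2. An alternative chosen after seeing the data, without DRF ZT4 replicate 1, gave 66 and 500.

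For the difference between ZT8 and ZT20, the 710 and 1130 genes became 1356 and 1892 after rescaling and 1429 and 1945 with voom. With all libraries they became 1161 with the deposited values and 441 with the compared ZTs alone. Leaving out 1 ZT8 library gave 488 to 1130 and 751 (without NRF replicate 4) to 1065, and leaving out DRF ZT4 replicate 1 gave 812 and 1224. No ZT20 library was left out, so the dependence on those libraries was not tested. The cause of these shifts was not tested.

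Directions turned for 3 genes that were not called. With all libraries and 1 left out, Dbp ran from -0.90 to 0.078 (0.051 without NRF replicate 3), Per1 from -0.22 to 0.68 and Arntl from -0.36 to 0.27 (0.070 without DRF replicate 3), and Arntl was 0.11 with voom. Without NRF replicate 1, Per1 ran from -0.43 to 0.15. Of the 52 named genes, 21 and 44 passed, and 3 and 4 of them passed under every alternative in which they were tested.

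Replicate numbers did not pair the samples: same-numbered deviations from the group means correlated at -0.06, -0.11, -0.09 and 0.06, and 1 of 4 DRF libraries correlated best with its own number. With the replicate block the ZT8 counts were 37 and 355 and those for ZT8 against ZT20 were 707 and 1179.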

Other observations

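Of the cell type markers, a share near or below that of all genes passed the test at ZT8. Without NRF replicate 1, 1 of the 65 markers tested in 15 lists passed in limma's test, Col1a1 (1.54%, against 2.92% of all genes), and with all libraries 0 passed (0.353% of all genes did). At an unadjusted p under 0.05 they were 9 (13.8%, against 22.1% of all genes) and 7 (10.8%, against 14.6%). After median-of-ratios rescaling without NRF replicate 1, 1 cardiomyocyte marker was higher, and 1 fibroblast and 1 macrophage marker were lower. List medians ran from -0.51 for 6 atrial cardiomyocyte markers and -0.49 for 5 adipocyte markers to 0.45 for 2 lung epithelial markers, against -0.10 for all genes. The medians were -0.34 for fibroblast, -0.26 for macrophage, -0.24 for smooth muscle and pericyte, -0.24 for mesothelial, -0.23 for endothelial, -0.22 for Schwann cell, -0.04 for skeletal muscle, -0.03 for erythroid, -0.02 for cardiomyocyte, 0.14 for neutrophil and 0.23 for lymphocyte markers. No thymocyte marker was high enough to test.

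Atrial markers varied widely between libraries of 1 regimen. Their summed TPM ran from 828 to 3211 under DRF and from 463 to 3710 under NRF, and Nppa, which encodes atrial natriuretic peptide, from 453 to 1542 TPM and from 179 to 1931 TPM. NRF replicate 1 held the lowest sum, and without it NRF hearts ran from 1801 to 3710 TPM, still overlapping the DRF range. Without it all 6 atrial markers had differences below 0, and 0 passed. The part of atrial tissue in the ZT8 differences was not tested.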
